A study of Rattus norvegicus with 372 samples.

Results

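Primary rat hepatocytes were exposed to WY14643 at 8 µM or at 200 µM, and the 2 concentrations were compared directly, well against well, within each batch of cells. The members were the 12 wells of WY14643 in the whole-transcriptome (WT) assay, 3 wells per concentration in each of 2 batches, out of 372 samples in all. They were chosen by the chemical and the concentration given in the labels, with no measured value. The same 24 h cultures were also read by the surrogate (ST) assay of 2654 probes, whose 12 WY14643 samples served as a check. The question was which genes had already reached their level at 8 µM and which moved further when the concentration was raised 25-fold.

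WY14643 is a synthetic agonist of peroxisome proliferator-activated receptor alpha (PPARα), a nuclear receptor of the liver that binds DNA with the retinoid X receptor. In rodents its activation turns on the peroxisomal and mitochondrial oxidation of fatty acids, omega hydroxylation by the CYP4A enzymes, ketone body synthesis and the handling of lipid droplets. The nuclear receptors CAR and PXR respond to foreign chemicals and drive another set of enzymes, of which the CYP2B family is the best known.

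The hepatocytes came from male Wistar rats and were kept between 2 layers of collagen in 96-well plates, in medium with dexamethasone at 100 nM, insulin and epidermal growth factor. All groups, vehicle included, carried 0.5% DMSO for 24 h. Each batch was 1 rat, and the wells of a group held cells of that rat, so the tests within a batch measure the spread between wells and not between animals. Both concentrations of a batch stood on the same plate, alternating along a row. Vehicle differed in this respect: the 3 vehicle wells of batch 1 stood on another plate than WY14643, and of the 6 vehicle wells of batch 2, 3 stood on the plate of WY14643. A difference from vehicle in batch 1 therefore cannot be told apart from a difference between plates, while the difference between 200 and 8 µM does not involve vehicle. Depth ran from 4231460 to 8667331 reads per WY14643 well in WT and from 1084453 to 2047975 in ST. In batch 1 the 8 µM wells (median 5107858 reads, n = 3) were shallower than the 200 µM wells (median 7018964 reads, n = 3). No 2 WY14643 wells held identical counts. The hepatocyte genes Alb, Ttr, Tf, Apoa1 and Hnf4a were read in every WY14643 and vehicle well.

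Few genes separated 200 µM from 8 µM. Of 10189 genes tested in each batch, 379 (3.72%) were called in batch 1 and 244 (2.39%) in batch 2 at an adjusted p under 0.05. The batch 2 count rested on single wells and on the fit. Without 200 µM replicate 1 or 2 of that batch it was 109 and 151. Without 8 µM replicate 1 or 2 it was 125 and 134. It was 511 in the fit of WY14643 and vehicle wells alone. Under the replicate block, a fit of the WY14643 wells alone with the well number as a term, it was 703. In both batches and with the same sign, 51 genes were higher at 200 µM (0.501% of 10187) and 68 were lower (0.668%), and no gene was called with opposite signs. Without single wells the counts ran from 36 to 48 higher and from 38 to 60 lower. Of the 119 genes, 25 rose and 18 fell by at least 2-fold in both batches. The log2 fold change (L2FC) of 200 against 8 µM had a median over all genes of -0.01 in batch 1 and 0.00 in batch 2. At 1.17% of the genes, WY14643 had the smallest share called in both batches among the 14 chemicals when the high was set against the low concentration. The next was doxorubicin with 346 genes (3.4%), and acetaminophen had 5746 (56.4%). All 14 pairs of concentrations had the same ratio.

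**Figure D1:**
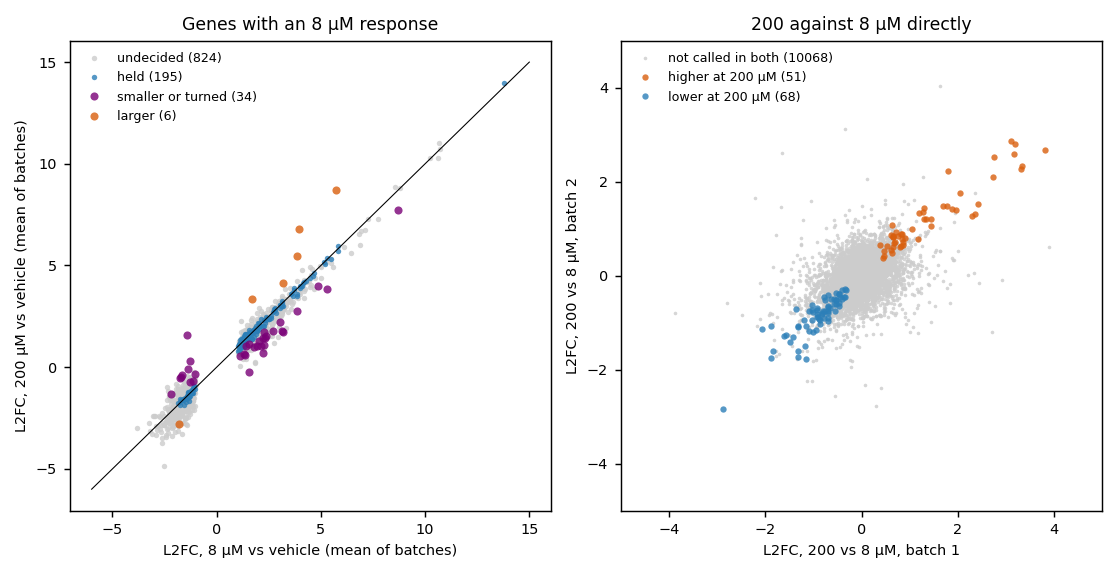
Left, L2FC against vehicle at 8 µM (x) and at 200 µM (y), mean of 2 batches, for the 1059 genes with an 8 µM response; the line marks equal responses and colours give the class (195 held, 6 larger, 34 smaller or turned, 824 undecided). Right, L2FC of 200 against 8 µM in batch 1 (x) and batch 2 (y) for 10187 genes, with the 51 genes higher and the 68 genes lower at 200 µM in both batches in colour; most genes lie around 0.

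The response to 8 µM was already broad. Against vehicle, 598 genes (5.87% of 10187) were at least 2-fold higher and 461 (4.53%) at least 2-fold lower at 8 µM in both batches. For 195 of these 1059 genes the response was held, which means that the 95% interval of the L2FC of 200 against 8 µM lay inside a 1.5-fold change in both batches. Of the held genes 148 were higher and 47 lower than vehicle. The response was larger at 200 µM for 6 genes, 5 of them higher and 1 lower than vehicle, and it was smaller or turned for 34 genes, 24 higher and 10 lower than vehicle. The count of larger responses was 16 in the fit of WY14643 and vehicle wells alone, 11 without the filter on low counts and 11 without 200 µM batch 2 replicate 3. The other 824 genes were undecided: their intervals reached past 1.5-fold, and the step was not called in both batches. With a 2-fold bound 596 genes were held, and with a 1.2-fold bound 0 were. The median standard error of the step was 0.20 in batch 1 and 0.21 in batch 2 for the 598 raised genes. For the 461 lowered genes it was 0.29 and 0.27, and over all genes 0.21 and 0.20. Since the 8 µM wells enter both the response and the step, the classes were also read across batches. Of responders taken in batch 1, 408 were inside 1.5-fold in batch 2, 24 were larger and 59 smaller. Of responders taken in batch 2, 431 were inside 1.5-fold in batch 1, 70 were larger and 98 smaller. The median step of the 598 genes raised at 8 µM was -0.18 in both batches on the log2 scale. It was -0.11 in batch 2 for the 776 genes raised in batch 1, and -0.14 in batch 1 for the 970 genes raised in batch 2. The median step of the 461 genes lowered in both was -0.06 in batch 1 and 0.05 in batch 2.

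PPARα targets rose at 8 µM, and they were called between the concentrations at a share near that of all genes. The 7 target lists named 97 genes, of which 70 were tested. At 8 µM 59 of the 70 were at least 2-fold higher than vehicle in both batches and 0 were lower, against 5.87% and 4.53% of all genes. Between 200 and 8 µM 1 of the 70 was called in both batches, Fabp1, which was lower, beside 1.17% of all genes. That count depended on the fit, with 3 called under DESeq2, 3 in the fit of WY14643 and vehicle wells alone and 4 under the replicate block. The step stayed within 2-fold in both batches for 67 of the 70 members, while 97.2% of all genes were within 2-fold in batch 1 and 98.1% in batch 2. The exceptions were Fabp1, Fabp3 (L2FC -1.07 in batch 1 and -0.57 in batch 2) and Oxct1 (-0.39 and -1.27), of which only the Fabp1 step passed the test in both batches. The median step of the 70 genes was -0.03 on the log2 scale, beside 0.00 for all genes, while the median L2FC against vehicle was 3.18 at 8 µM and 3.25 at 200 µM. Of the 59 responders, 31 were held, 27 were undecided, 1 was smaller and 0 were larger, beside 148 held, 421 undecided, 24 smaller and 5 larger of all 598 genes raised at 8 µM. In a single batch, 4 members were called in batch 1 (Acadl, Etfb, Fabp1 and Fabp3, all lower) and 2 in batch 2 (Cyp4f4, higher, and Fabp1, lower), beside 3.72% and 2.39% of all genes.

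Cyp4a1 encodes a fatty acid omega hydroxylase and is a classical mark of peroxisome proliferators. In batch 1 its level was 1.05, 1.55 and 2.24 CPM (counts scaled to the TMM-adjusted library size of the well) in vehicle, 2986, 2856 and 3156 at 8 µM and 3750, 3702 and 4039 at 200 µM. In batch 2 vehicle ranged from 0.85 to 2.37 with a median of 1.69, and the wells read 2354, 2517 and 2353 at 8 µM and 2807, 3208 and 3191 at 200 µM. Vehicle stood far below both concentrations, and in each batch the 200 µM wells lay above the 8 µM wells without overlap. The L2FC against vehicle at 8 µM was 10.89 in batch 1 and 10.48 in batch 2. The step to 200 µM was 0.35 ± 0.16 (SE) in batch 1 and 0.35 ± 0.28 in batch 2, and neither passed (edgeR quasi-likelihood test, adjusted p = 0.285 and 0.548). Cyp4a2, of the same family, had steps of 0.03 and 0.08.

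Acot1, a thioesterase that frees fatty acids from coenzyme A, was almost absent from vehicle. Over the 3 vehicle wells of batch 1 and the 6 of batch 2, 1 count was read in each batch. The 8 µM wells read 857, 778 and 885 CPM in batch 1 and 738, 659 and 623 in batch 2, and the 200 µM wells 895, 935 and 1068 and 784, 836 and 730. The ratio of counts to vehicle at 8 µM, both over TMM-adjusted library sizes, was 17158 in batch 1 with an interval of 3079 to 677772, and 27456 in batch 2 with an interval of 4927 to 1084530 (exact binomial, counting error only). The step was 0.20 ± 0.18 in batch 1 and 0.22 ± 0.16 in batch 2, inside 1.5-fold in both, so the response was held.

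Ehhadh, an enzyme of peroxisomal beta oxidation, was undecided. Its wells read 3329, 2981 and 3440 CPM at 8 µM and 2375, 2211 and 2957 at 200 µM in batch 1, and 2485, 2354 and 2417 against 1959, 2083 and 2050 in batch 2. The 200 µM wells lay below the 8 µM wells in both batches without overlap. The steps were -0.37 ± 0.17 and -0.25 ± 0.20, and neither passed (adjusted p = 0.285 and 0.534).

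The other standard targets described here had no step called in both batches. Cpt1a, which admits fatty acids to mitochondria, had steps of -0.27 and 0.20. Pdk4, a kinase that shuts off pyruvate oxidation, was read at 3 counts over the vehicle wells of batch 1, and its count ratio at 8 µM was 362 with an interval of 124 to 1762. Its steps were 0.52 ± 0.22 and 0.09 ± 0.28 (adjusted p = 0.242 and 0.906). Plin2, a lipid droplet coat protein, was held at 7.52-fold and 6.64-fold, with steps of -0.11 and 0.06. Fgf21, a fasting hormone, had steps of -0.53 and 0.02. Cd36, a fatty acid transporter, was tested in ST only, with steps of -0.53 and -0.03, neither called. Angptl4 was not analysed here.

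**Figure D2:**
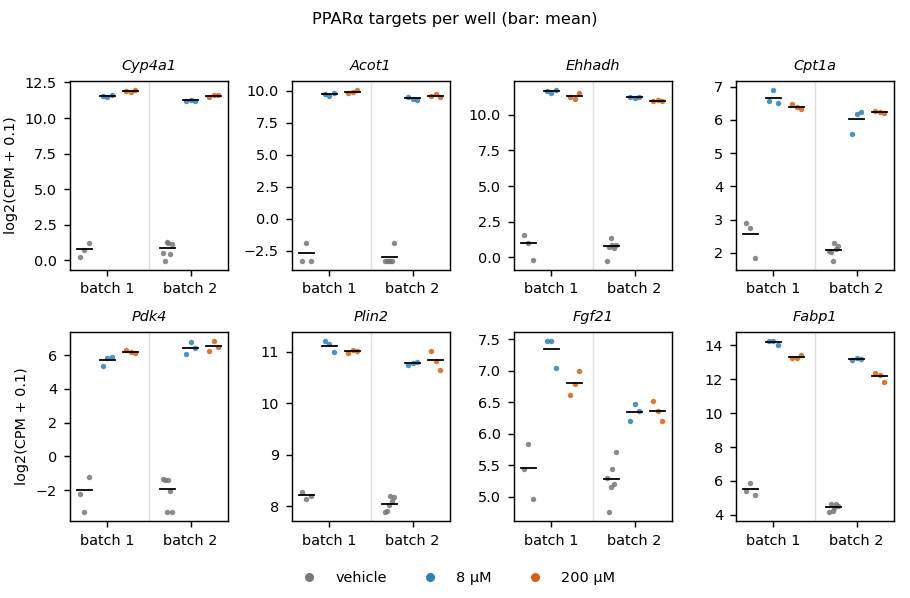
Level of 8 PPARα targets in each well, as log2(CPM + 0.1) on the y axis, for vehicle, 8 µM and 200 µM in batch 1 and batch 2; points are wells and bars are means. In all 8 panels the wells of both concentrations stand above the vehicle wells of their batch, and the 200 µM wells of Fabp1 are lower than its 8 µM wells in both batches.

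Several of the largest rises among the held genes were those of target list members. The largest held rises included Acot1, Acot4 (L2FC at 8 µM 6.06 and 5.62), Acsl1, which activates long-chain fatty acids (5.88 and 5.77), the glycerol kinase Gk (5.23 and 5.37), Ech1 (5.48 and 4.87), Pex11a, which acts in peroxisome division (5.22 and 5.03), and the pantetheinase Vnn1 (4.71 and 4.61). Their steps lay between -0.23 and 0.22. In the list of peroxisomal beta oxidation 10 of 13 tested genes were held, among them Crat, and in that of the carnitine shuttle and mitochondrial beta oxidation 7 of 16, among them Slc22a5, Acadm, Cpt2 and Hadha. The thioesterases had 4 of 7 held, the fuel switch list 6 of 11 (Vnn1, Ephx2, Retsat and Me1 among them) and the uptake and lipid droplet list 4 of 16 (Acsl1, Plin2, G0s2 and Vldlr). The list of omega hydroxylation had 0 of 3 held, with a median step of 0.35 and mean steps over the batches from 0.05 to 0.69. That of ketone body synthesis had 0 of 4 held, with a median step of -0.46 and mean steps from -0.83 to -0.10. No member of either was called in both batches. Of all genes tested, 1.91% were held, and of the 598 genes raised at 8 µM, 148 were. A held response needs a 2-fold response to 8 µM first, so the raised genes are the closer comparison. Outside the target lists, the gene for the nuclear receptor CAR, Nr1i3, was held at 8.53-fold and 8.09-fold, with steps of 0.05 ± 0.20 and 0.00 ± 0.21.

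The largest held falls were smaller than the largest held rises. They were Fads3, Fat1, Cdr2, Cdk6, Osmr, Atf3, Anks4b and Tnk2, with an L2FC at 8 µM from -1.21 to -2.13 and steps from -0.21 to 0.23. Osmr encodes the oncostatin M receptor, Atf3 a stress-induced transcription factor and Cdk6 a kinase of the cell cycle. The complement protease gene C1s was also held, with an L2FC of -1.11 and -1.54.

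Fabp1, the liver fatty acid binding protein, was the PPARα target that receded. In batch 1 the vehicle wells read 42.9, 59.7 and 36.3 CPM, the 8 µM wells 19439, 19006 and 16299, and the 200 µM wells 9536, 9507 and 10804. In batch 2 vehicle had a median of 22.3 (17.7 to 25.1), the 8 µM wells read 8739, 9786 and 9278 and the 200 µM wells 5218, 4821 and 3644. The concentrations did not overlap in either batch. The response went from 395-fold at 8 µM to 215-fold at 200 µM in batch 1 and from 424-fold to 209-fold in batch 2, a step of -0.88 ± 0.20 (adjusted p = 0.00315) and -1.02 ± 0.22 (adjusted p = 0.00297). In ST its steps were -0.65 in batch 1, not called, and -1.28 in batch 2, called.

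PPARα binds a direct repeat of 2 hexamers with 1 base between them. The RefSeq promoters of assembly GRCr8, from 250 bases before to 50 after each start, were searched on both strands for AGGNCANAGGNCA. It stood in 139 of 33469 promoters (0.415%) and in 26 of the 7533 tested genes that had a promoter (0.345%). Among 119 genes held above vehicle that had a promoter, 1 held it, the liver glycogen synthase gene Gys2, and among 17 genes raised at 8 µM and smaller at 200 µM, 1 held it, Fabp1. The 2 promoters are shown because one gene held its response and the other did not, and capitals mark the 13 matching bases. Gys2 was singled out after its match was seen.

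Fabp1 (GRCr8 chr4:104749090-104749389, plus strand, match on the other strand from base -77): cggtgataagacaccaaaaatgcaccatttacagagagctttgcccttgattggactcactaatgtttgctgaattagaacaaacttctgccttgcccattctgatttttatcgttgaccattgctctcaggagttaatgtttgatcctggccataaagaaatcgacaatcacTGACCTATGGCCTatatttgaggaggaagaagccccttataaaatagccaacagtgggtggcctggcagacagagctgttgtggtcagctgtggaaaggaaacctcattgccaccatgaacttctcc
Gys2 (GRCr8 chr4:177137187-177137486, minus strand, match on the gene strand from base -80): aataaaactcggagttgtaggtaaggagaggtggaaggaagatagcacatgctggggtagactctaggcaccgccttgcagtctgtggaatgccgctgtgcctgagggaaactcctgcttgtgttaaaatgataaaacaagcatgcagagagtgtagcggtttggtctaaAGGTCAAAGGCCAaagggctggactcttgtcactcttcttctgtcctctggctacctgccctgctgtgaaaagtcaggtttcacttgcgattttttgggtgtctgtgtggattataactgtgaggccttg

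Gys2 read 57.6, 43.9 and 58.7 CPM at 8 µM and 47.9, 44.0 and 48.0 at 200 µM in batch 1, and 86.7, 83.4 and 93.0 against 97.5, 92.8 and 83.9 in batch 2. The wells of the 2 concentrations overlapped in both batches. Its response was 5.69-fold and 6.33-fold at 8 µM, and its steps were -0.19 ± 0.17 and 0.06 ± 0.14.

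Genes higher at 200 µM than at 8 µM included enzymes and a transporter of drug and hormone metabolism, some of which lay below vehicle at 8 µM. The list of CAR and PXR targets named 14 genes, of which 8 had a WT probe and were tested. Of these 8, 4 were higher at 200 µM in both batches (Cyp2b1, Cyp2b2, Abcc2 and Alas1) and 0 were lower. The median step of the 8 was 0.84. Over all genes 0.501% were higher and 0.668% lower, with a median of 0.00. When each of the 12 wells was left out in turn, Abcc2 lost its call for 4 and Alas1 for 3. Of the 10 tested constitutive P450 and bile acid enzymes, 4 were higher (Cyp2c6v1, Cyp2e1, Cyp2c22 and Cyp2c11) and 0 were lower, with a median step of 0.66. The CYP2B, CYP2C, GSTA and UGT2 genes have near-identical relatives, and how far a probe also reads such a relative was not tested.

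Cyp2b2 and Cyp2b1, the 2 rat CYP2B enzymes that CAR activators are known for, had the largest steps among the 8 µM responders whose response grew. Cyp2b2 read 3.49, 5.52 and 1.92 CPM in vehicle, 199, 183 and 169 at 8 µM and 1759, 1652 and 1622 at 200 µM in batch 1. In batch 2 vehicle had a median of 1.99 (0.851 to 3.40), and the wells read 90.9, 129 and 120 at 8 µM and 756, 871 and 743 at 200 µM. Vehicle, 8 µM and 200 µM did not overlap in either batch. The gene was thus raised 50.8-fold and 53.9-fold at 8 µM, and a further 9.13-fold and 6.99-fold by the step to 200 µM (L2FC 3.19 ± 0.24 and 2.80 ± 0.27, adjusted p = 8.97e-16 and 6.43e-12). The Cyp2b1 wells of batch 1 read 7.46, 1.66 and 7.70 CPM at 8 µM and 42.3, 42.1 and 75.9 at 200 µM. Those of batch 2 read 5.14, 6.33 and 4.76 against 20.5, 27.2 and 34.3. The steps were 3.33 ± 0.43 and 2.33 ± 0.33.

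The other genes whose 8 µM response grew were Cyp2c22 (steps 1.78 and 1.49), the catalytic subunit of glucose-6-phosphatase G6pc (1.88 and 1.41), the gluconeogenic enzyme Pck1 (1.16 and 0.77) and, downward, Pdlim2 (-1.02 and -0.94). G6pc read 6.60, 8.62 and 7.22 CPM at 8 µM and 30.0, 19.8 and 34.1 at 200 µM in batch 1, and 4.67, 9.73 and 5.68 against 12.6, 20.6 and 20.3 in batch 2. Its wells did not overlap. The Pck1 call ended under DESeq2, under another size factor and for 6 of the 12 wells when each was left out in turn, the mean step over the 12 omissions running from 0.88 to 1.05, and that of Pdlim2 ended for 4 of the 12, its mean step running from -1.03 to -0.92 over the 12, and under the replicate block.

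In the list of gluconeogenesis and amino acid breakdown 3 of 23 tested genes were higher at 200 µM in both batches, G6pc, Pck1 and the alanine aminotransferase Gpt2 (0.64 and 0.47), and the aspartate aminotransferase Got1 was lower (-0.37 and -0.45), beside 0.501% of all genes higher and 0.668% lower. The median step of the list was 0.32, that of all genes 0.00. When each of the 12 wells was left out in turn, Got1 lost its call for 7 and Gpt2 for 3, and Got1 also lost it without the filter on low counts, in the fit of WY14643 and vehicle wells alone and under the replicate block.

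**Figure D3:**
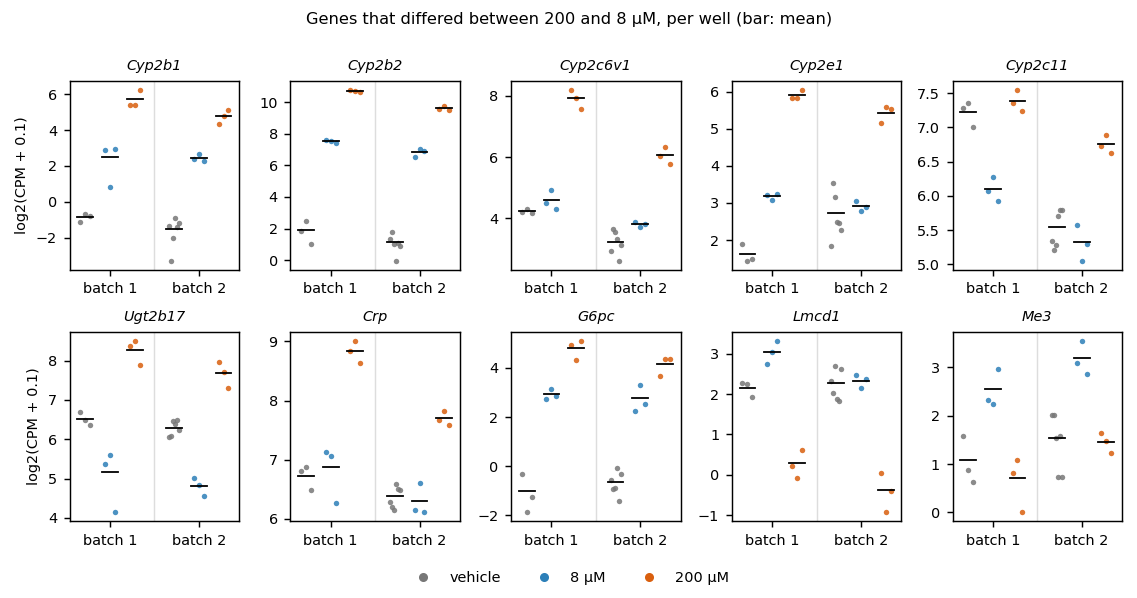
Level of 10 genes that differed between the concentrations in each well, as log2(CPM + 0.1) on the y axis, for vehicle, 8 µM and 200 µM in batch 1 and batch 2; points are wells and bars are means. Cyp2b2 climbs over both concentrations, Ugt2b17 is below vehicle at 8 µM and above it at 200 µM, Crp is near vehicle at 8 µM, and Me3 is above vehicle at 8 µM only.

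Responses that shrank or turned ran in both directions. Ugt2b17, a glucuronosyltransferase of steroids, turned. It read 104, 90.4 and 82.2 CPM in vehicle, 41.6, 48.1 and 17.6 at 8 µM and 333, 363 and 237 at 200 µM in batch 1. In batch 2 vehicle had a median of 79.8 (67.1 to 89.4), and the wells read 32.1, 28.7 and 23.5 at 8 µM and 249, 209 and 158 at 200 µM. All 8 µM wells lay below and all 200 µM wells above the vehicle wells of their batch. The L2FC against vehicle went from -1.36 to 1.75 in batch 1 and from -1.49 to 1.38 in batch 2, steps of 3.11 ± 0.27 and 2.87 ± 0.24 (adjusted p = 2.1e-13 and 6.55e-14).

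The other 9 genes lowered at 8 µM and less so at 200 µM included Cyp2c24, Ugt2b35, Akr1c14, Ugt2a3, Cyp2f4, Abcc2, Lect2 and Slc38a3. Akr1c14, a hydroxysteroid dehydrogenase, read 150, 157 and 145 CPM at 8 µM and 390, 380 and 373 at 200 µM in batch 1, where vehicle read 402, 392 and 330. In batch 2 it read 92.6, 95.3 and 94.4 at 8 µM and 251, 214 and 191 at 200 µM, below the vehicle range of 282 to 451. Its steps were 1.34 ± 0.19 and 1.22 ± 0.18. Abcc2, a canalicular export pump, had steps of 0.63 ± 0.19 and 1.08 ± 0.22 and stayed below vehicle, at 0.254 and 0.189 of its level at 8 µM and 0.392 and 0.399 at 200 µM. Its call also ended in the fit of WY14643 and vehicle wells alone and under the replicate block. With wells left out in turn, the call ended for 5 of the 12 wells for Cyp2c24, 3 for Cyp2f4 and 1 for Ugt2b35.

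Genes raised at 8 µM and lower at 200 µM numbered 24. Me3, a mitochondrial malic enzyme, read 4.88, 4.64 and 7.70 CPM at 8 µM and 1.67, 2.01 and 0.902 at 200 µM in batch 1, and 8.41, 11.6 and 7.21 against 3.04, 2.69 and 2.24 in batch 2. The 200 µM wells overlapped vehicle in both batches. Its steps were -1.87 ± 0.50 and -1.76 ± 0.38, and the call ended with 2 of the 12 wells left out in turn. Among genes with a name, the next largest steps were those of Klhdc8a (-1.31 and -1.72), Tex49 (-1.88 and -1.07), She (-1.17 and -1.49), Bcl2l14 (-1.32 and -1.07), the glycerol channel Aqp7 (-1.15 and -1.08) and Psca (-1.21 and -0.93). The calls of She, Klhdc8a, Bcl2l14 and Aqp7 ended for 5, 4, 4 and 1 of the 12 wells, and that of She also without the filter on low counts.

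Lipid synthesis moved down from 8 to 200 µM in a few genes. In cholesterol synthesis 12 of 18 tested genes were at least 2-fold above vehicle at 8 µM, beside 5.87% of all genes. From 8 to 200 µM 2 were lower in both batches and 0 were higher, beside 0.668% and 0.501% of all genes, with a median step of -0.38 against 0.00. The 2 were Idi1, an isomerase of the isoprenoid chain (-0.70 and -0.97), and Nsdhl, a sterol dehydrogenase (-0.40 and -0.50). Insig1, which restrains sterol synthesis, was held, with a response of 2.58 and 2.65 on the log2 scale. In fatty acid synthesis 7 of 10 were raised at 8 µM, and Scd (-0.93 and -0.82) and Thrsp (-0.71 and -0.90) were lower at 200 µM, with a median step of -0.35 for the list. Scd, the stearoyl-CoA desaturase, went from 4.71 to 3.78 on the log2 scale over vehicle in batch 1 and from 4.97 to 4.16 in batch 2. The step was below 0 in both batches for 16 of the 18 and 9 of the 10 genes, beside 33.3% of all genes. The 598 genes raised at 8 µM, whatever their list, had a median step of -0.18 in both batches. Its part in the fall of these lists was not tested. When each of the 12 wells was left out in turn, the call of Scd was lost for 7, those of Idi1 and Nsdhl for 2 each and that of Thrsp for 1. Nsdhl also lost it without the filter on low counts, in the fit of WY14643 and vehicle wells alone and under the replicate block.

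Of the 119 genes that differed between the concentrations, 79 had no 2-fold response to 8 µM in both batches. The largest rises with a gene name were Cyp2c6v1 (3.32 and 2.27), Cyp2e1 (2.75 and 2.53), S1pr3 (1.78 and 2.22), Tsku (2.42 and 1.53), Gsta5 (2.35 and 1.32), Gsta2 (2.29 and 1.28) and Crp (1.97 and 1.40). The largest falls were Lmcd1 (-2.87 and -2.84), Gdf2 (-1.83 and -1.60), Tuba1a (-2.08 and -1.14), Dysf (-1.17 and -1.77), Car3 (-1.49 and -1.42) and Plat (-1.56 and -1.27). These genes were named after their values were seen where they belonged to no list.

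None of them met the strict rule for a response at 200 µM alone, a 2-fold step with the 95% interval of 8 µM against vehicle inside 1.5-fold in both batches (0 genes; 119 had a called step by edgeR). With a 2-fold bound 5 genes met it. Asking instead that 8 µM was not called against vehicle in either batch left 5 genes, Crp, Igfbp1, S1pr3, Car3 and Dysf, which shows no absence of a response to 8 µM. Crp, C-reactive protein, read 140, 134 and 76.7 CPM at 8 µM and 458, 515 and 398 at 200 µM in batch 1, with vehicle at 111, 117 and 89.8. In batch 2 it read 71.0, 96.8 and 68.9 at 8 µM and 205, 227 and 193 at 200 µM, with vehicle between 71.1 and 95.9. The 8 µM wells spanned the vehicle range and the 200 µM wells stood above it (steps 1.97 ± 0.25 and 1.40 ± 0.22, adjusted p = 6.15e-08 and 1.66e-05). Igfbp1, a binding protein of insulin-like growth factors, had steps of 1.44 ± 0.25 and 1.2 ± 0.27.

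Cyp2c6v1, a CYP2C enzyme, read 22.4, 30.3 and 19.5 CPM at 8 µM and 294, 244 and 190 at 200 µM in batch 1, and 14.5, 13.1 and 13.8 against 65.3, 79.7 and 54.7 in batch 2. Vehicle lay between 18.1 and 19.7 in batch 1 and between 5.91 and 12.3 in batch 2. Cyp2e1, known for the oxidation of ethanol and small solvents, read 9.18, 8.29 and 9.38 at 8 µM and 57.2, 56.7 and 66.4 at 200 µM in batch 1, and 8.25, 6.80 and 7.37 against 35.6, 47.9 and 46.1 in batch 2. For both genes every 200 µM well was above every 8 µM and vehicle well of its batch. Cyp2c11, the male-specific rat P450, was below vehicle at 8 µM in batch 1 (L2FC -1.12) and near it in batch 2 (-0.22), and rose by 1.29 and 1.44 to 200 µM. Lmcd1, a LIM-domain cofactor, fell from 6.60, 8.13 and 9.86 CPM at 8 µM to 1.06, 0.839 and 1.44 in batch 1 and from 5.45, 4.32 and 5.06 to 0.925, 0.425 and 0.660 in batch 2, below the vehicle wells in both.

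The other gene lists gave few calls between the concentrations. Of 17 tested genes of the integrated stress response, 1 was higher at 200 µM, the pseudokinase Trib3 (0.83 and 0.79), with a median step of 0.24. Of 19 acute phase and coagulation genes 1 was higher, Crp, with a median step of -0.08. Of all genes 0.501% were higher, and the median step was 0.00. In the lists of lipid nuclear receptors (15 tested), AhR targets (6), endoplasmic reticulum chaperones (9), heat shock proteins (9), NRF2 antioxidant genes (12), metallothioneins (3), p53 targets (11), cell cycle (17), complement (18), chemokines (12), interferon genes (13) and hepatocyte identity (20) there were 0 calls in both batches. Their median steps lay between -0.32 and 0.80 on the log2 scale, the highest being that of the 3 metallothionein genes. Cell cycle genes had a median of -0.32, and 12 of 17 were below 0 in both batches, beside 33.3% of all genes. In the receptor list Nr0b2, a repressor of bile acid synthesis, had the largest step, 1.93 ± 0.35 in batch 1 (adjusted p = 4.31e-05) and 1.33 ± 0.49 in batch 2 (adjusted p = 0.128). The gene of PPARα itself, Ppara, had steps of 0.22 ± 0.26 and 0.35 ± 0.25, neither called.

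**Figure D4:**
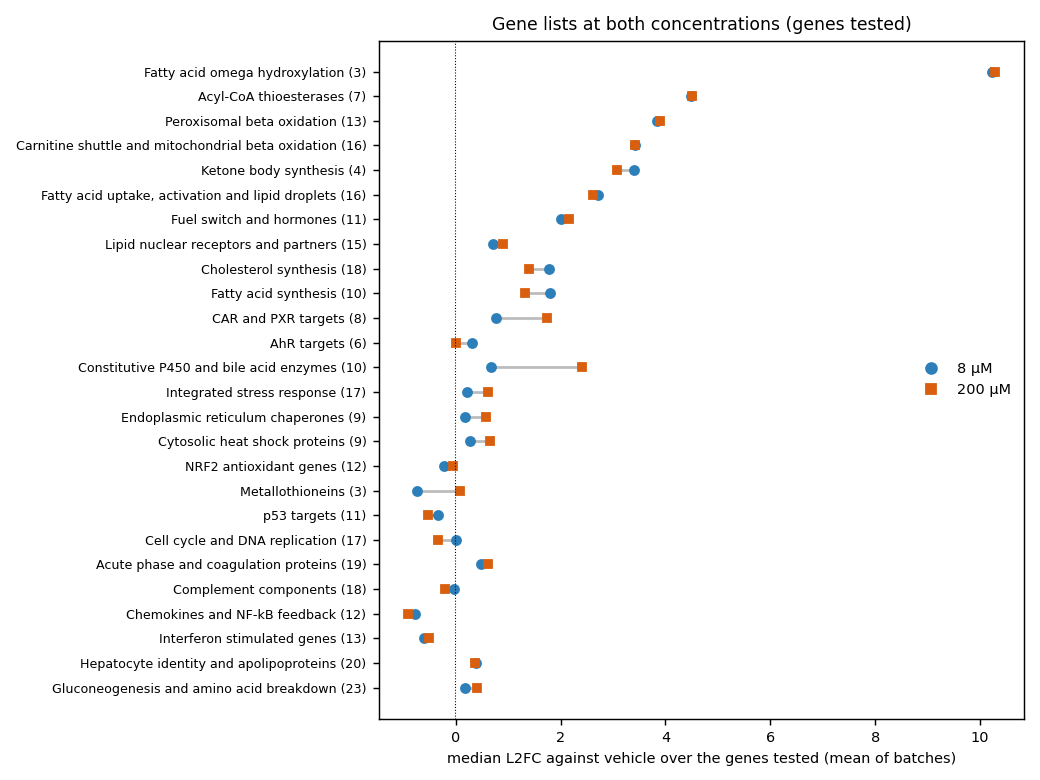
Median L2FC against vehicle at 8 µM (circles) and 200 µM (squares) on the x axis, over the tested genes of each list and averaged over 2 batches; the number tested stands after each name and the dotted line is the median of all genes. The 7 PPARα lists stand at the top, all with both marks to the right of the dotted line, and the CAR and PXR and constitutive P450 lists have the 200 µM mark to the right of the 8 µM mark.

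The ST assay, run on the same wells, gave the same sign for the genes that both assays tested and WT called. Of 1760 genes tested, 29 (1.65%) were higher and 25 (1.42%) lower at 200 µM in both batches. The lower genes numbered 14 without 8 µM batch 1 replicate 2 and 11 under the replicate block. Of the 119 genes called in WT, 44 were tested in ST, all 44 had the sign of WT in the mean of the batches, and 26 were called in both batches. Of 73 held genes that ST tested, 0 were called, and of 52 PPARα targets 0 were called in both batches, beside the 1.65% and 1.42% of all genes. The held genes were chosen by a small WT step in the same wells, so their count is no independent check. The ST steps were 3.19 and 3.04 for Cyp2b2, 3.09 and 2.80 for Cyp2e1, 2.99 and 1.84 for Cyp2c6v1, and 0.30 and 0.56 for Cyp4a1. ST also called Cyp3a1 (3.29 and 2.69) and Cyp3a2 (2.09 and 1.97) higher in both batches. Among the WT-called genes that ST called in neither batch were Abcc2 (0.54 and 0.59), Got1 (-0.28 and -0.14) and Cyp2f4 (1.17 and 1.01). Cyp2c24 (1.86 and 0.996) was called by ST in batch 1 only.

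Several summed measures, all given here over the plain total of the well, differed between the concentrations, and their part in the results was not tested. The PPARα target lists took 9.34 to 9.93% of the reads at 8 µM and 8.45 to 8.92% at 200 µM in batch 1, and 7.52 to 8.30% against 7.0 to 7.58% in batch 2, with 0.587 to 0.672% in vehicle. The summed level of 12 stellate cell and fibroblast markers was 497 to 518 CPM in vehicle, 243 to 307 at 8 µM and 173 to 209 at 200 µM in batch 1, and 323 to 431, 139 to 166 and 100 to 157 in batch 2. Of these markers 4 were tested (Reln, Tagln, Col3a1 and Col1a2), Col1a1 read at most 0.179 CPM in any well, and 0 were called between the concentrations in both batches. Tagln, an actin-binding protein of smooth muscle, had steps of -1.90 and -0.79 and was called in batch 1 only. The summed level of the 5 hepatocyte genes was 37263 to 37650 CPM at 8 µM and 29466 to 32709 at 200 µM in batch 1, and 36603 to 38859 against 33734 to 34570 in batch 2, while none of the 5 was called in either batch. The 8 biliary markers summed to 71.8 to 72.6 CPM at 8 µM and 51.9 to 61.7 at 200 µM in batch 1, and to 82.2 to 87.2 against 73.2 to 77.9 in batch 2. The hepatocyte and biliary sums were lower at 200 µM without overlap in both batches, and the stellate sum in batch 1 only. The 14 Kupffer cell and leukocyte markers summed to 112 to 131 CPM at 8 µM and 81.8 to 111 at 200 µM in batch 1, without overlap, and to 71.3 to 93.1 against 78.6 to 86.8 in batch 2, with overlap. The 11 endothelial markers overlapped in both batches, at 4.72 to 7.83 against 5.84 to 7.11 and 5.41 to 9.12 against 5.96 to 9.81. In whole lysates fewer cells of a type and less RNA per cell cannot be told apart.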

How the data were processed

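Per the labels and the study's methods, lysates of treated hepatocytes were hybridised with the detector probes of the TempO-Seq rat WT or ST assay, ligated probes were amplified and sequenced, and reads were aligned to the rat genome (rn6) with STAR 2.5.3a. The authors deposited raw read counts per probe and sample, with no normalization. The WT table held 22253 probes, and 2654 probes were in that of ST.

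Here the deposited counts were summed per gene symbol, and a gene was tested where its mean over the 186 wells of an assay reached 10 counts, 10191 in WT and 1760 in ST. Each batch was fitted with edgeR 4.0.16 (R 4.3.3) by the quasi-likelihood test with TMM factors over all treatments of the batch, and 200 against 8 µM was called at a Benjamini-Hochberg adjusted p under 0.05. Standard errors and 95% intervals came from the same fit, and the scripts were tested on simulated data. A response to 8 µM needed an L2FC of at least 1 in size and a call against vehicle in both batches. CPM values of single genes were scaled to the well's TMM-adjusted library size, and marker sums and shares of reads to its plain total. Named were standard PPARα targets, the members of each list with the largest called steps and held responses, and the leading genes of each class. The gene lists and the genes in them were chosen with earlier results of these data known. No sequencing depth was equalised except in an alternative. Intervals of count ratios cover counting error only. Promoters came from RefSeq. Alternatives covered the size factors, filter, samples fitted, DESeq2 1.42.0, bounds, batches joined, depth, probes and wells left out. Some items that this rule names are not reported here.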

Additional observations from a re-analysis of the deposited data

Results flagged for a closer look

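The step from 8 to 200 µM differed between the batches for 2 genes by a test of the difference itself (edgeR quasi-likelihood interaction test, adjusted p under 0.05; 386 genes had an unadjusted p under that value). For Creld2, a chaperone-like protein of the endoplasmic reticulum, the L2FC in batch 2 minus that in batch 1 was -1.10 (adjusted p = 0.00155), from 1.06 ± 0.16 in batch 1 and -0.05 ± 0.13 in batch 2. For LOC103694875 it was -2.58 (adjusted p = 0.00354), from 2.43 ± 0.32 in batch 1 and -0.15 ± 0.38 in batch 2. Each batch was 1 rat prepared and sequenced separately, so animal and run cannot be told apart. Without 8 µM batch 1 replicate 2 the number of such genes was 0.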

How the results depend on the processing

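No result changed direction under any alternative run, and WY14643 had the fewest called genes of the 14 chemicals in every setting run. With an absolute L2FC of at least 1, 119 genes were called in batch 1 and 71 in batch 2, 25 higher and 18 lower in both, with 0 PPARα targets called, 13 responses smaller or turned, and 15 higher and 5 lower in ST. A 2-fold bound gave 596 held genes and 5 responding at 200 µM alone, and a 1.2-fold bound 0 held. Without a fold minimum at 8 µM, 1176 were held, 23 larger and 56 smaller. Taking responders from batch 1 and the step from batch 2 gave 408 held, 24 larger and 59 smaller, and the reverse 431, 70 and 98. Requiring no call at 8 µM in place of the bound, chosen after seeing the data, gave 5 genes at 200 µM alone. A single fit of both batches, which asks for no call in each, gave 257 higher and 328 lower. Without the filter, 2 PPARα targets were called, 11 responses were larger and 1 gene responded at 200 µM alone. Fitting only WY14643 and vehicle wells gave 511 genes in batch 2, 3 PPARα targets, 16 larger responses and 1 gene at 200 µM alone. DESeq2 called 3 PPARα targets. The cause of these changes was not tested.

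The replicate block, with the well number as a term, was fitted to the WY14643 wells alone. It gave 703 genes in batch 2, 103 lower in both batches, 4 PPARα targets and 11 lower genes in ST. The term and the smaller set of wells cannot be told apart in these counts. The well numbers did not pair the wells: deviations of same-numbered wells correlated at -0.30, 0.27 and 0.08 in batch 1 and at 0.05, 0.22 and -0.15 in batch 2.

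Leaving out each WY14643 well in turn gave 263 to 379 genes in batch 1, 109 to 244 in batch 2, 36 to 48 higher and 38 to 60 lower in both, 1 to 2 PPARα targets, at least 153 held, 5 to 11 larger, 24 to 35 smaller, 0 to 0 at 200 µM alone, 0 to 2 differing between batches, a rank of 1 to 1 among the chemicals, and 20 to 28 higher and 14 to 30 lower genes in ST. The batch 2 count was 109 without 200 µM replicate 1, 151 without 200 µM replicate 2, 125 without 8 µM replicate 1 and 134 without 8 µM replicate 2. The count lower in both was 38, 40, 42 and 45 without batch 2 wells 200 µM replicate 1, 200 µM replicate 2, 8 µM replicate 1 and 8 µM replicate 3. Larger responses numbered 11 without 200 µM batch 2 replicate 3, PPARα targets 2 without 8 µM batch 1 replicate 2, and lower ST genes 14 without 8 µM batch 1 replicate 2. Over all alternatives, calls of single named genes were lost 79 times. DESeq2 was not run for the difference between batches, the block was not run for the response classes or the other chemicals, and thinning was not run for ST. With 3 wells a side, steps under about 1.5-fold were often undecided.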
